A study of Mus musculus with 13 samples.

Results

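The genes described here are 10 interferon-inducible GTPases of the mouse: Iigp1, Irgm1, Irgm2, Igtp, and Tgtp1 of the immunity-related GTPase (IRG) family and Gbp2, Gbp3, Gbp6, Gbp7, and Gbp9 of the guanylate-binding protein (GBP) family. They were taken by symbol from a raw count table of 54838 genes, with GENCODE M21 supplying the symbols, and all 10 passed the filter on low counts that left 17795 genes for testing. The genes were chosen by family with measured values of the same libraries already in view, namely the levels and fold changes of Iigp1 between the 4 genotypes, so that their differences between genotypes, and the counts of them that passed a threshold, are given as descriptions and not as tests. The RNA came from 50000 cells per mouse that were sorted from the BM as Lin- cKit+, a gate that enriches HSPCs by removing cells with lineage markers, and 13 mice were sequenced. Control mice (n = 3) carried Mx1-Cre alone, p53mut mice (n = 3) Mx1-Cre with p53 R172H/+, NrasG12D mice (n = 3) Mx1-Cre with one mutant Nras allele, and NPmut mice (n = 4) Mx1-Cre with both mutant alleles. The titles give the Nras allele as G12D, whereas a genotype tag of the single mutants spells it G21D. All groups thus carried Mx1-Cre, in which the promoter of an interferon-induced gene drives the recombinase in any cell that responds to interferon. Control, p53mut, and NrasG12D mice received repeated injections of 100 μg pI-pC from about 6 weeks of age, and were age matched, according to the labels. NPmut mice received no pI-pC and were moribund with AML. The synthetic double-stranded RNA pI-pC itself induces interferon, so that in every comparison with NPmut mice the genotype, the missing injections, and the stage of disease cannot be told apart.

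IRG and GBP proteins are large GTPases that interferons switch on in most mouse cells and that attack the membranes around intracellular bacteria and parasites. Iigp1 and Tgtp1 encode effectors that coat such vacuoles, whereas Irgm1, Irgm2, and Igtp encode regulators that sit on the membranes of the cell's own organelles and hold the effectors inactive there. GBPs assemble on the same vacuoles and on bacteria and promote inflammasome signaling. Type I interferon acts chiefly on the interferon-stimulated response element (ISRE), through a complex that includes IRF9, and interferon-γ acts on the γ-activated site (GAS). In HSPCs, Irgm1 is known as a gene that protects stem cells from the effects of interferon.

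Promoter sequences were given for part of the family and were searched for both elements. The letters GAAA, any 2 bases, and GAAA were searched on both strands as an ISRE, and the palindromic letters TTC, any 3 bases, and GAA as a GAS, in RefSeq promoter windows of 300 bases (build GRCm38.p6). A window was given for 7 of the 10 genes, with 2 windows for Gbp3, while Iigp1, Gbp6, and Gbp9 had none. An ISRE was found in 7 of the 8 windows, that is in at least 1 window of each of the 7 genes, against 3.44% of all 32851 windows. A GAS was found in 4 of the 8 windows, against 8.3% of all windows. Of 9 windows of other family genes, 5 held an ISRE and 3 a GAS. The 110 bases before the RefSeq start follow for the 7 genes and for Tgtp2, the near-identical copy of Tgtp1, to show where the elements lie. Capitals mark ISRE and GAS letters, and sequences read 5′ to 3′ in the direction of transcription.
Irgm1 (chr11:48871421-48871530, minus strand): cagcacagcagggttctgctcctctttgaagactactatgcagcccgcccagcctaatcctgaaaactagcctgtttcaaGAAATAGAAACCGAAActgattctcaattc
Irgm2 (chr11:58214867-58214976, plus strand): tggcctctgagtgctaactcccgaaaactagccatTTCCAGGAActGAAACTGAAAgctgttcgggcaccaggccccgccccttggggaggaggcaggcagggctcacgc
Igtp (chr11:58199446-58199555, plus strand): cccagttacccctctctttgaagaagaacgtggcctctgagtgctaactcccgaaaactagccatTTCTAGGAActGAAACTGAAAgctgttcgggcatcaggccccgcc
Tgtp1 (chr11:48992247-48992356, minus strand): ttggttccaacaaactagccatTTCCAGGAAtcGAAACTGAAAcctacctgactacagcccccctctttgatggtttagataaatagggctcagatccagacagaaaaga
Tgtp2 (chr11:49064213-49064322, minus strand): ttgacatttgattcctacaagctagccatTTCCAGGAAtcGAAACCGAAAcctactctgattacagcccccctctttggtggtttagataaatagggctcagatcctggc
Gbp2 (chr3:142620553-142620662, plus strand): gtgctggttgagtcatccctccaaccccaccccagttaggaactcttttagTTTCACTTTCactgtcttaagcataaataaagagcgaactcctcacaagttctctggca
Gbp3 (chr3:142559934-142560043, plus strand): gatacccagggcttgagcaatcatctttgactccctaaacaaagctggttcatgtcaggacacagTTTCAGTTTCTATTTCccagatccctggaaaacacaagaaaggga
Gbp7 (chr3:142530226-142530335, plus strand): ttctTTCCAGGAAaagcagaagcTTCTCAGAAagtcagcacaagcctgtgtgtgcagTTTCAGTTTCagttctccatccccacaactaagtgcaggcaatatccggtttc

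One arrangement was shared by several genes. In Irgm2, Igtp, Tgtp1, and Tgtp2, a GAS is followed after 2 bases by an ISRE. The same letters at the same spacing, searched for after they had been seen in these genes, were found in 5 of the 32851 windows (0.0152%), those of these 4 genes and that of Gm12185, a gene that overlaps Tgtp1. Tgtp1 and Tgtp2 are near-identical copies. The windows of Igtp and Irgm2 lie apart, but their bases around the elements are nearly the same. These are thus not independent examples. Irgm1 and Gbp3 have a pair of overlapping ISREs and no GAS, Gbp2 has a single ISRE and no GAS, and Gbp7 has 1 ISRE with 2 GAS matches further upstream. A match of letters is a description and does not show that a factor binds there.

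Libraries held 12576174 (NPmut mouse 4) to 29124022 (NPmut mouse 2) counts. Kit, which the gate calls for, was at 288 to 712 CPM, that is counts scaled to a common library size, in all 13 mice. The summed level of 10 HSPC markers, Kit among them, was 1845 to 2327 CPM in NPmut and 2317 to 3172 CPM in the other mice. In NPmut against control mice, 6 of these markers had a negative and 4 a positive log2 fold change, with a median of −0.40. Cd3e, a defining marker of T cells, was almost absent, with group means of at most 0.260 CPM. The whole list of 10 T and NK cell markers was not absent. Its summed level was 55.6 to 69.4 CPM in control and 39.0 to 62.3 CPM in p53mut mice. It was 45.2 to 51.4 CPM in NrasG12D and 40.1 to 61.6 CPM in NPmut mice, and 0 of the 10 were without counts in any group. Monocyte and erythroid marker lists differed in the NPmut group. The summed level of 10 monocyte and macrophage markers was 419 to 874 CPM in NPmut mice and 156 to 320 CPM in the other mice, and 0 of the 10 were without counts in any group. The summed level of 8 dendritic cell markers was 129 to 287 CPM in NPmut and 81.3 to 118 CPM in control mice. It was 96.3 to 150 CPM in p53mut and 147 to 214 CPM in NrasG12D mice, so that NPmut mice overlapped with both single mutants. In NrasG12D mice, 1 of the 8 dendritic cell markers was without counts. That of 6 erythroid markers was 48.9 to 236 CPM in NPmut mice and 252 to 496 CPM in the other mice. Counts on 1459 olfactory and vomeronasal receptor genes, which serve here as a measure of background reads, were 103 to 191 CPM in control mice, 58.9 to 138 in p53mut mice, 37.7 to 44.4 in NrasG12D mice, and 17.5 to 57.3 in NPmut mice. The part of these cells and reads in the results below was not tested. In bulk RNA, fewer cells that express a gene and less of its RNA per cell cannot be told apart.

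The members differed widely in abundance. Per length of exon, the highest level in control mice was that of Gbp3, at 22.9 ± 2.92 RPKM (SD, n = 3), followed by Gbp7 at 10.5 ± 0.367 RPKM and Irgm1 at 7.73 ± 0.981 RPKM. Igtp (5.84 ± 0.805 RPKM) and Gbp2 (5.49 ± 0.737 RPKM) came next and differed by less than their spread, and Irgm2 had 3.36 ± 0.118 RPKM. The remaining 4 genes were rare in control mice. Iigp1 had 0.473 ± 0.118 RPKM, Gbp9 0.346 ± 0.203 RPKM, Tgtp1 0.338 ± 0.0674 RPKM, and Gbp6 0.0967 ± 0.115 RPKM, and the first 3 of these differed by less than their spread. Within the list, the regulators of the IRG family were thus present at higher RPKM levels than Iigp1 and Tgtp1. This order does not extend to genes outside the list. In control mice, Tgtp2, the near-identical copy of Tgtp1, had 1308 counts over 2938 exonic bases, against 56 counts of Tgtp1. Irgm2 had 637 counts over 3690 bases. Gm12250, an effector outside the list, had 594 counts over 1274 bases, against 605 over 2022 bases of Igtp.

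Among the 5 IRG genes, the fitted differences of NrasG12D and of NPmut mice from control were largest for the effectors. In NPmut mice, however, Tgtp1 (−1.18 ± 0.45) differed from the regulator Irgm2 (−0.90 ± 0.23) by less than its SE. The effector Gm12250, outside the 10 genes, had a log2 fold change of 1.29 ± 0.27 in NrasG12D and only −0.61 ± 0.25 in NPmut mice. Iigp1 was at 1.95, 2.84, and 3.16 CPM in the control mice and at 9.90, 7.73, and 14.8 CPM in the NrasG12D mice. In NPmut mice it was at 1.16, 0.964, 1.29, and 0.339 CPM, and in p53mut mice at 1.70, 4.94, and 5.50 CPM. All NrasG12D mice lay above all other mice and all NPmut mice below all other mice, whereas p53mut mice overlapped with control mice. The fitted log2 fold change against control was 2.02 ± 0.44 (SE) in NrasG12D, 0.61 ± 0.44 in p53mut, and −1.45 ± 0.43 in NPmut mice. Between NPmut and NrasG12D mice, Iigp1 differed by −3.47 ± 0.43 on the log2 scale, which is 11.1-fold. Expected background reads amounted to 5.45% of its counts in control mice, 0.412% in NrasG12D mice, and 4.25% in NPmut mice.

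Tgtp1, the other effector, was at 1.03, 0.865, and 1.22 CPM in control mice and at 2.66, 4.19, and 4.98 CPM in NrasG12D mice. It was at 0.455, 0.270, 0.697, and 0.424 CPM in NPmut mice and at 0.738, 2.14, and 2.08 CPM in p53mut mice. The order was that of Iigp1, again without overlap of NrasG12D or NPmut mice with any other mouse. Its log2 fold change against control was 1.91 ± 0.44 in NrasG12D and −1.18 ± 0.45 in NPmut mice. Tgtp1 rests on 5 to 77 counts per library, and 81.2% of its transcript stretches of 50 bases also occur in other genes, chiefly in Tgtp2, so that counting may have split reads between both. Tgtp2 itself had 3.82 to 17.9 CPM in NPmut, 22.1 to 28.6 CPM in control, and 49.5 to 77.7 CPM in NrasG12D mice. With counts of both genes summed, an alternative added after the data had been seen, the log2 fold change was 1.37 ± 0.37 in NrasG12D and −1.35 ± 0.35 in NPmut mice.

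The 3 regulator genes followed the same order with smaller steps. Irgm2 was at 12.1, 11.8, and 11.98 CPM in control mice, 20.7, 19.0, and 24.7 CPM in NrasG12D mice, and 5.96, 5.52, 9.92, and 4.16 CPM in NPmut mice. Irgm1 (chr11:48861968-48871683) had 37.2 to 48.3 CPM in control, 56.5 to 79.6 CPM in NrasG12D, and 20.4 to 33.7 CPM in NPmut mice. Neither gene had an NrasG12D or NPmut mouse within the range of control mice. Their log2 fold changes against control were 0.84 ± 0.24 for Irgm2 and 0.60 ± 0.18 for Irgm1 in NrasG12D mice, and −0.90 ± 0.23 and −0.71 ± 0.17 in NPmut mice. Igtp was at 9.71, 13.04, and 11.5 CPM in control mice and at 19.0, 18.9, and 21.2 CPM in NrasG12D mice. In NPmut mice it was at 8.04, 9.72, 9.60, and 7.21 CPM and overlapped with control mice by 1 mouse, with a log2 fold change of −0.40 ± 0.16. In p53mut mice, the 3 regulators overlapped with control mice, with log2 fold changes of 0.11 (Igtp) to 0.20 (Irgm1). Igtp and Irgm2 overlap in the annotation on chromosome 11 and share 11.8% and 7.77% of their stretches of 50 bases, respectively.

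**Figure D1:**
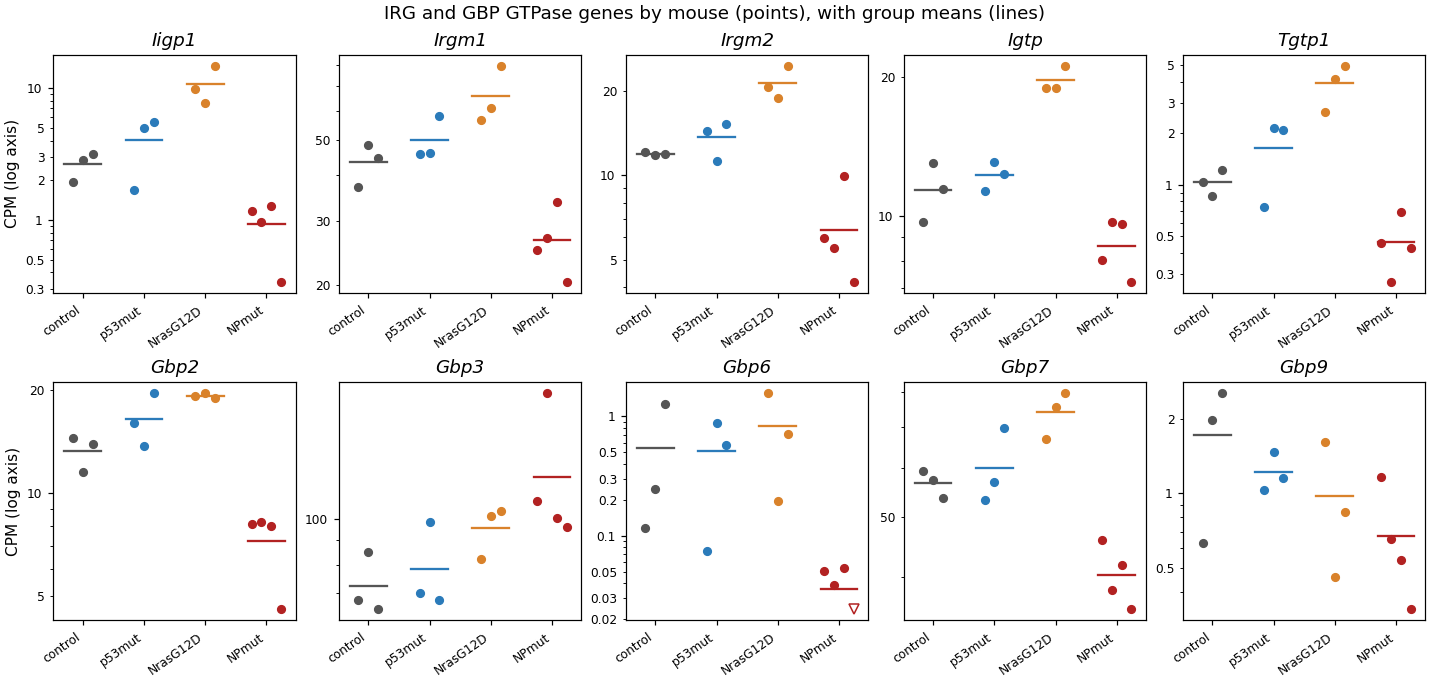
CPM of each of the 10 genes on a log axis, with 1 point per mouse and a line at the mean of each group (control, p53mut, and NrasG12D n = 3 each, NPmut n = 4). An open triangle marks the NPmut mouse without Gbp6 counts. The NrasG12D mean is the highest and the NPmut mean the lowest for all 5 IRG genes in the upper row, whereas for Gbp3 the NPmut group has the highest mean and includes 1 mouse at 183 CPM.

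Of the GBP genes on chromosome 3, Gbp2 and Gbp7 shared the order of the IRG genes. Gbp2 was at 14.5, 11.6, and 13.9 CPM in control mice and at 19.2, 19.6, and 19.0 CPM in NrasG12D mice. NPmut mice had 8.14, 8.25, 8.04, and 4.58 CPM of Gbp2 and were below all other mice, and p53mut mice had 16.1, 13.8, and 19.6 CPM. Its log2 fold change against control was 0.53 ± 0.21 in NrasG12D and −0.87 ± 0.19 in NPmut mice. Gbp7 was at 53.6 to 59.4 CPM in control mice, 66.9 to 79.6 CPM in NrasG12D mice, and 35.4 to 45.8 CPM in NPmut mice, without overlap between these groups. The log2 fold changes of Gbp7 against control were 0.38 ± 0.13 in NrasG12D and −0.50 ± 0.12 in NPmut mice.

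Gbp3 departed from this order. It was at 67.7, 85.0, and 64.6 CPM in control mice, 70.0, 98.1, and 67.7 CPM in p53mut mice, and 82.3, 101, and 104 CPM in NrasG12D mice. NPmut mice had 109, 183, 100, and 96.0 CPM and were all above the control mice, but overlapped with p53mut and NrasG12D mice. The log2 fold change of NPmut against control mice was 0.75 ± 0.21, and 0.49 without NPmut mouse 2, the mouse at 183 CPM. Per length, Gbp3 was also the most abundant of the 10 genes in NPmut mice, at 35.3 ± 9.95 RPKM. The promoter of Gbp3 shown above holds ISRE letters without a GAS, as does that of Gbp2, which differed in the other direction.

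The 2 members on chromosome 5 had few counts. Gbp6 was at 0.115, 0.247, and 1.27 CPM in control mice, 0.0738, 0.885, and 0.579 CPM in p53mut mice, and 1.56, 0.197, and 0.712 CPM in NrasG12D mice. The NPmut libraries held 1, 1, 1, and 0 counts of Gbp6. The 3 counts of all NPmut mice gave a ratio of 0.0676 to the control rate of 31 counts, with an exact 95% interval of 0.0132 to 0.217 that covers counting error only. The other groups overlapped with each other. Control mouse 3 gave 25 of the 31 control counts, and without that mouse the fitted log2 fold change moved from −3.61 to −2.01. Expected background reads equaled 25.5% of the Gbp6 counts in control mice and 110% in NPmut mice, where 3.30 counts were expected and 3 were found. Moreover, 70.7% of the stretches of 50 bases of Gbp6 occur in other genes, chiefly Gm43302 and Gbp10. Gbp9 was at 0.632, 1.98, and 2.55 CPM in control mice and at 1.16, 0.656, 0.536, and 0.339 CPM in NPmut mice, and its groups overlapped in all comparisons. It overlaps Gbp4 and Gbp8 on the same strand in the annotation, and 8.05% of its stretches of 50 bases occur in other genes, chiefly these.

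Between control mice and each single mutant, which all had pI-pC, 0 of the 10 genes were called by the edgeR quasi-likelihood test, with a call defined as an adjusted p-value under 0.05 and a change of at least 2-fold. For NrasG12D mice, the background was 0.00562% of 17795 genes called higher (1 gene, H2-Q6) and 0% called lower. At an unadjusted p-value under 0.05, 7 of the 10 genes were higher in NrasG12D mice against 5.05% of all genes, beside 4.18% of all genes lower. Without overlap, 7 were above control mice and 0 below, beside 10.9% and 10.2% of all genes. DESeq2 called 2 of the 10 genes higher, Iigp1 and Tgtp1, as did edgeR on the 2 groups alone or without a filter on low counts. Over all genes, 44 of 20818 were called higher with DESeq2, 42 of 16492 in the 2 groups alone, and 66 of 44944 without a filter. For p53mut mice, DESeq2 called 0 of the 10 genes as well, and 0 of them had an unadjusted p-value under 0.05 with edgeR, against 1.06% of all genes higher and 1.28% lower. All 10 overlapped with control mice, whereas 5.47% of all genes were above and 5.71% below without overlap. The median log2 fold change of the 10 genes was 0.59 in NrasG12D and 0.16 in p53mut mice, beside −0.01 and 0.00 over all genes tested.

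In NPmut against control mice, 2 of the 10 genes were called lower, Iigp1 and Gbp6, beside 3.69% of all genes, and 0 were called higher, beside 2.32%. Without the minimum of 2-fold, 6 were lower and 1, Gbp3, was higher, beside 5.54% and 5.38% of all genes. Without overlap, 7 of the 10 were below control mice and 1 above, beside 11.5% and 10.4% of all genes. The median log2 fold change of the 10 genes was −0.88, beside 0.01 over all genes. Both calls were lost when any one of 8 libraries was left out (control 2 or 3, p53mut 2, NrasG12D 1 or 3, NPmut 1, 2, or 4) and in a fit to the 2 groups alone. Against NrasG12D mice, 7 of the 10 genes were called lower in NPmut mice (all but Gbp3, Gbp7, and Gbp9) and 0 higher, beside 2.6% and 1.81% of all genes. Without overlap, 8 were lower and 0 higher, beside 11.2% and 9.34% of all genes. Against p53mut mice, 4 genes, Iigp1, Irgm2, Tgtp1, and Gbp2, were called lower and 0 higher, beside 3.1% and 2.15% of all genes, and the count was 1 without p53mut mouse 3. Without overlap, 8 were lower and 0 higher, beside 10.5% and 9.1% of all genes. The comparisons of NPmut mice share the NPmut libraries, and those with control mice share the control libraries, so that they are not independent of each other.

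**Figure D2:**
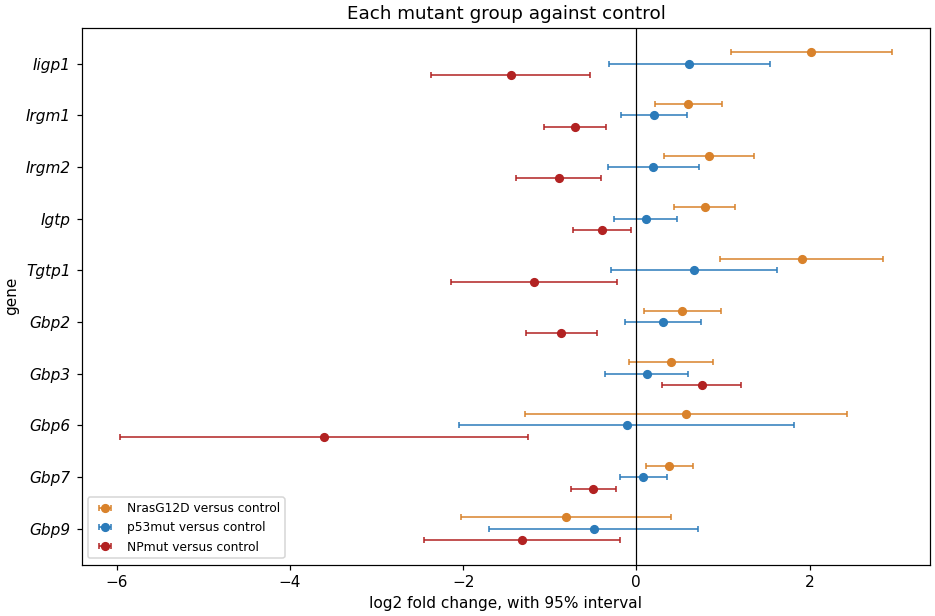
Fitted log2 fold change of each gene against control mice, as points with 95% intervals, for NrasG12D, p53mut, and NPmut mice. Iigp1 lies at 2.02 in NrasG12D and −1.45 in NPmut mice, and Gbp3 is the only gene with a positive value in NPmut mice.

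Because NPmut mice carry both alleles, the design also allows the interaction, NPmut minus p53mut minus NrasG12D plus control on the log2 scale, which is 0 where the effects of the alleles add up. The term was negative for 9 of the 10 genes, with a median of −1.61 beside 0.05 over all genes. It was −4.08 ± 0.61 for Iigp1 and −3.76 ± 0.62 for Tgtp1, the effectors. The regulators had −1.94 ± 0.34 (Irgm2), −1.51 ± 0.25 (Irgm1), and −1.29 ± 0.23 (Igtp), and Gbp2 had −1.71 ± 0.28. These 6 genes were called, beside 0.938% of all genes called with a negative and 0.405% with a positive term. Gbp7 had −0.96 ± 0.18 and was below the minimum of 2-fold. Gbp6 (−4.07 ± 1.44), Gbp3 (0.23 ± 0.31), and Gbp9 (−0.01 ± 0.69) were not called. As the 3 other groups had pI-pC and NPmut mice did not, the term holds the injections as well as the alleles.

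Of the rest of both families, 17 genes were in the table and 13 were tested. These were not among the genes listed, and their p-values are those of the edgeR quasi-likelihood fit adjusted over all genes. They belong to the same families and were measured in the same libraries, so that they are not independent of the 10 genes. Tgtp2, for example, shares 86.6% of its stretches of 50 bases with other genes, chiefly Tgtp1. In the interaction, 5 of the 13 had a called negative term and 0 a called positive one, beside 0.938% and 0.405% of all genes. They were Gm4951 (−5.63 ± 0.66, adjusted p = 0.00229), Gm4841 (−3.11 ± 0.75, adjusted p = 0.0488), Tgtp2 (−3.08 ± 0.52, adjusted p = 0.0157), Gm12250, the effector also known as Irgb10 (−2.39 ± 0.37, adjusted p = 0.00619), and Irgq (−1.14 ± 0.22, adjusted p = 0.0201). The median over the 13 genes was −1.19. F830016B08Rik (−3.68 ± 0.90, adjusted p = 0.0521), Gm5431 (−2.19 ± 0.86, adjusted p = 0.221), Gbp4 (−1.19 ± 1.34, adjusted p = 0.72), and Gbp8 (−1.12 ± 1.09, adjusted p = 0.665) did not pass the test. Gm4951, which lies near Iigp1 on chromosome 18, had a lower term than any of the 10 genes. It was at 1.03, 0.803, and 1.33 CPM in control mice, 3.42, 3.34, and 7.12 CPM in NrasG12D mice, and 0.152, 0.270, 0.0536, and 0.0848 CPM in NPmut mice.

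**Figure D3:**
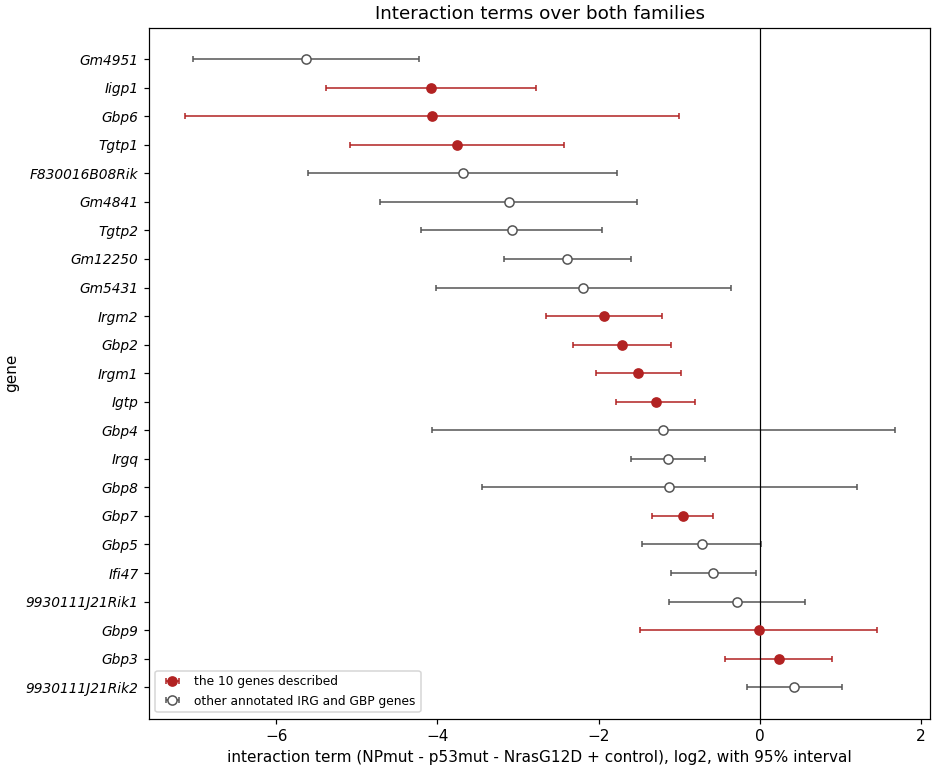
Interaction terms on the log2 scale with 95% intervals for the 23 tested genes of both families, with filled points for the 10 genes described and open points for the others. Terms run from −5.63 for Gm4951 to 0.43 for 9930111J21Rik2, and 21 of the 23 are negative.

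In NPmut against control mice, 3 of the 13 genes were called lower by edgeR, beside 3.69% of all genes. They were Gm4951 (−2.74 ± 0.50, adjusted p = 0.00326), F830016B08Rik (−3.99 ± 0.68, adjusted p = 0.00211), and Tgtp2 (−1.35 ± 0.35, adjusted p = 0.028). The NPmut libraries together held 12 counts of Gm4951 and 5 of F830016B08Rik. Expected background reads amounted to 12.2% and 36.5% of these counts. In NrasG12D against control mice, 0 of the 13 were called by edgeR, beside 0.00562% of all genes called higher. At an unadjusted p-value under 0.05, 7 had a positive change, beside 5.05% of all genes. Without overlap, 8 were above control mice, beside 10.9% of all genes. Ifi47 and Gbp5, which belong to the same families and lie near Tgtp2 and Gbp7, did not pass the test in NPmut mice, at −0.18 ± 0.17 (adjusted p = 0.543) and −0.22 ± 0.24 (adjusted p = 0.602). The pair 9930111J21Rik1 and 9930111J21Rik2 stood above control in NPmut mice like Gbp3, at 0.74 ± 0.27 (adjusted p = 0.101) and 0.47 ± 0.19 (adjusted p = 0.131), without passing the test. Gbp4 and Gbp8, which overlap Gbp9 in the annotation, were as scattered as Gbp6 and Gbp9, with 0 to 3.92 CPM of Gbp4 in the single mutants and controls. Irgc1, Gbp10, Gbp11, and Gbp2b were not tested because of low counts.

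The pathway that controls these genes was examined from lists written with results of these data known. RNA of the interferons themselves was almost absent, since 12 ligand genes, Ifng and Ifnb1 among them, had at most 5 counts in any library. Of 11 receptor and signal transducer genes, 0 were called by edgeR in NPmut or in NrasG12D against control mice. At an unadjusted p-value under 0.05, 4 were higher and 1 lower in NPmut mice. The shares of all genes at this threshold are not given here for NPmut mice, so these counts cannot be set against them. In NrasG12D mice, 6 were higher at that threshold, beside 5.05% of all genes. At an edgeR adjusted p-value under 0.05 alone, 3 of the 11 were higher in NPmut mice, beside 5.38% of all genes. They were the receptor chains Ifnar1 (0.45 ± 0.11, adjusted p = 0.0149), Ifnar2 (0.70 ± 0.15, adjusted p = 0.0089), and Ifngr2 (0.96 ± 0.19, adjusted p = 0.00584). Ifngr1 was at 0.44 ± 0.16 (adjusted p = 0.0858). Irf9, a part of the complex that binds the ISRE, was called in the interaction (−1.17 ± 0.20, adjusted p = 0.0121). Stat2 was at 0.00 ± 0.18 in NPmut against control mice (adjusted p = 0.993).

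Among 13 transcription factors of the interferon response, 3 were called higher and 1 lower in NPmut against control mice. The shares of all genes were 2.32% higher and 3.69% lower. Irf5 (2.20 ± 0.23, adjusted p = 0.000103) and Irf8 (1.85 ± 0.23, adjusted p = 0.00044), which also serve monocyte and dendritic cell development, and Ciita (1.44 ± 0.37, adjusted p = 0.0215), the activator of MHC class II, rose. Irf7, the amplifier of the type I response, fell (−1.003 ± 0.29, adjusted p = 0.0366). Irf1 (0.34 ± 0.14, adjusted p = 0.147) and Nlrc5 (−0.18 ± 0.24, adjusted p = 0.69) did not pass the test. Of 11 feedback inhibitors, 0 were called in this comparison by edgeR, with Socs1 at 0.17 ± 0.44 (adjusted p = 0.849) and Usp18 at −0.99 ± 0.36 (adjusted p = 0.099). At an unadjusted p-value under 0.05, 2 were higher and 1 lower, again without the shares of all genes to set them against. Usp18, which blocks the type I receptor, had an interaction term of −3.36 ± 0.53 (adjusted p = 0.00644).

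Most type I interferon-stimulated genes had lower values in NPmut than in control mice. Of 23 tested, 17 had a negative and 6 a positive log2 fold change, with a median of −0.83. Of the 23, 8 were called lower and 0 higher by edgeR, beside 3.69% and 2.32% of all genes. Those called lower included Oas2 (−2.15 ± 0.33, adjusted p = 0.00118) and Ifi44 (−1.46 ± 0.37, adjusted p = 0.0211). In the interaction, 10 of the 23 had a called negative term, beside 0.938% of all genes. All 23 terms were negative, with a median of −1.76. Mx1, whose promoter drives the Cre of all groups, was at 0.82 ± 0.44 (adjusted p = 0.263) in NPmut and 1.92 ± 0.47 (adjusted p = 0.178) in NrasG12D against control mice. Of 9 sensors of double-stranded RNA, 2 were called lower and 0 higher in NPmut mice by edgeR, beside 3.69% and 2.32% of all genes. The 2 were Ddx58 (−1.34 ± 0.20, adjusted p = 0.00088) and Ifih1 (−1.20 ± 0.16, adjusted p = 0.00053), the genes of RIG-I and MDA5. The list had a median of −0.23, and its 1 positive value was that of Tlr3 (1.92 ± 0.73, adjusted p = 0.108), named after its value had been seen. MDA5 is the cytosolic receptor of pI-pC.

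Genes of the interferon-γ response gave another picture. Of 16 tested, 4 were called higher and 1 lower in NPmut against control mice, beside 2.32% and 3.69% of all genes. The median log2 fold change of the 16 was 0.42. The 4 were the MHC class II genes Cd74, H2-Aa, H2-Ab1, and H2-Eb1, with values between 1.46 and 2.91, and the 1 was Serpina3g (−1.61 ± 0.27, adjusted p = 0.00226). Most dendritic and monocyte markers were also higher in NPmut than in control mice. The median log2 fold change was 2.19 over 6 dendritic markers tested, of which 1 was negative (−1.09). It was 1.30 over 8 monocyte and macrophage markers tested, of which 2 were negative, the lowest at −1.53. The part of the dendritic and monocyte markers in the MHC class II values was not tested. In each NPmut mouse, the median difference in log2 CPM from control mice was between −1.10 and −0.35 over the 5 IRG genes and between −0.00 and 0.88 over the 16 interferon-γ genes. In each NrasG12D mouse, it was between 0.74 and 1.04 over the 5 IRG genes, between 0.24 and 0.52 over the 5 GBP genes, and between 1.17 and 1.66 over the type I genes. All 5 IRG genes were above the control mean in each NrasG12D mouse, and 0 of the 5 were in any NPmut mouse.

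**Figure D4:**
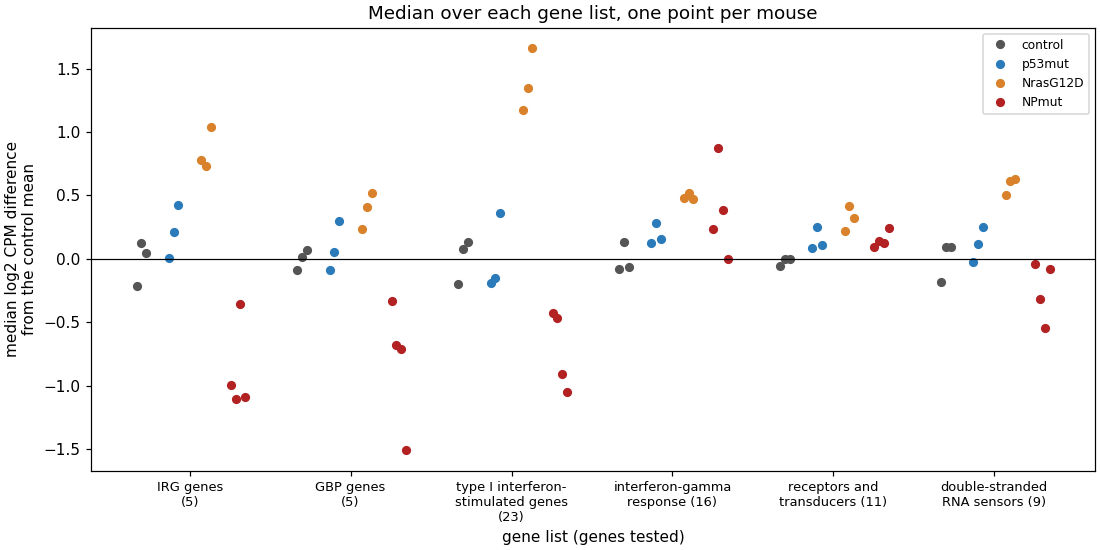
Median over each list of the difference in log2 CPM from the control mean, with 1 point per mouse. NrasG12D mice lie above 0 for all lists, and NPmut mice lie below 0 for the IRG, GBP, and type I genes but at −0.00 to 0.88 for the interferon-γ genes.

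The machinery that acts together with these GTPases gave few calls. Of 10 genes of the ubiquitin-like conjugation that loads IRG and GBP proteins onto vacuoles, 0 were called in NPmut against control mice with edgeR. An unadjusted p-value under 0.05 was found for 2 of them, and the share of all genes at that threshold is not given here. Of 8 inflammasome genes, 1 was called higher by edgeR, beside 2.32% of all genes. That gene was Il1b (2.77 ± 0.80, adjusted p = 0.0396), with overlap between the groups. Of 4 tested very large inducible GTPases, another interferon-inducible GTPase family, 3 were called lower in NPmut against NrasG12D mice, beside 2.6% of all genes. By edgeR they were Gvin1 (−1.62 ± 0.33, adjusted p = 0.00732), Gm8979 (−1.67 ± 0.47, adjusted p = 0.0372), and Gm4070 (−1.30 ± 0.32, adjusted p = 0.0205). Against control mice, 0 of these 4 were called, and 0 had an unadjusted p-value under 0.05 with edgeR.

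The genes whose profile over the 13 libraries was most like the mean of the 10 members were found among other interferon-inducible genes. By Pearson correlation of log2 CPM with the mean of the standardized values of the members, the 5 highest outside both families were Oas1b (0.953), Oasl2 (0.951), Oas2 (0.950), Lgals3bp (0.946), and H2-Q7 (0.945). The correlations describe libraries that fall into 4 groups and share their depth and preparation, and no p-value was derived from them. Oasl2, for example, was at 14.5 ± 1.65 CPM in control, 43.0 ± 10.5 CPM in NrasG12D, and 5.52 ± 1.40 CPM in NPmut mice (SD).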

How the data were processed

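The authors deposited a table of raw counts per gene, unnormalized, for all 13 libraries. According to the submitters' processing notes, STAR 2.6.1d, R 3.6.1, DESeq2 1.26.0, and the build GRCm38.p6 were used. The labels name a stranded total RNA kit, whereas the counting program, annotation release, and use of strand are not given in the sources used here, so that reads of overlapping genes may be mixed.

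Counts were analyzed in R 4.3.3 with edgeR 4.0.16. All 13 libraries entered 1 quasi-likelihood model with a mean per genotype, TMM factors, and edgeR's filter on low counts, which kept 17795 of 44944 genes with a count. P-values were adjusted by Benjamini-Hochberg over all genes tested, and a call required a change of at least 2-fold with an adjusted p-value under 0.05. CPM used TMM-scaled library sizes and RPKM also the exonic length of GENCODE M21, which gave a symbol to 54809 of 54838 genes. SE was derived from the test, as the absolute log2 fold change divided by the square root of the quasi-likelihood F statistic. The 95% intervals were built from this SE. Each library total bounds the counting precision, and intervals on counts cover counting error only. Mice of a group are separate samples by label, and p-values set group differences against the spread between mice, estimated from all groups together. The lowest correlation of log2 CPM between mice of a group was 0.940 in NPmut mice and 0.972 to 0.974 in the other groups.

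The members and gene lists were chosen with earlier results of these data known. All members and other family genes are named, and of each list a fixed set of signaling genes and up to 4 calls with the largest change. Alternatives were DESeq2 1.42.0, other scaling and filters, fits to the compared groups alone, a replicate block, and leaving out each library. Summing near-identical copies was added after the data had been seen. The labels do not say what a replicate number marks. Deviations of same-numbered mice correlated at 0.152 to 0.166 in all 3 pairs of control and p53mut mice, whereas in the other group pairs at least 1 correlation was under 0.1. The scripts were tested on simulated data.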

Additional observations from a re-analysis of the deposited data

Results flagged for a closer look

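The interaction term of the edgeR fit passed the threshold for 6 of the 10 genes, which is a description, since these genes were chosen with levels of the same libraries in view. The terms on the log2 scale were −4.08 for Iigp1, −3.76 for Tgtp1, −1.94 for Irgm2, −1.71 for Gbp2, −1.51 for Irgm1, and −1.29 for Igtp. Of the other family genes, Gm4951 (−5.63), Gm4841 (−3.11), Tgtp2 (−3.08), Gm12250 (−2.39), and Irgq (−1.14) passed the same threshold. NPmut mice were the only ones without pI-pC, and the alleles and the injections cannot be told apart in these terms.

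Among the 4 NPmut mice, 1 mouse stood far from the other 3 for Gbp2 (NPmut mouse 4, at 4.58 CPM) and another for Gbp3 (NPmut mouse 2, at 183 CPM). The NPmut values of 23 genes were examined in this way, and chance flags about 1 in 20 groups.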

How the results depend on the processing

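In NPmut against control mice, the count of members called was 2, and it was 1 with a minimum mean of 1 CPM, 0 in a fit to the 2 groups alone, 7 without a minimum fold change, and 0 to 2 when single libraries were left out, with 1 call without control mouse 1 or p53mut mouse 3. In NrasG12D against control mice, 0 members were called, and 2 with DESeq2, without a filter, or in a fit to the 2 groups alone. Under a replicate block, the count was 1 in both comparisons, and 2 for NrasG12D against control mice when these 2 groups were fitted alone. In NPmut against p53mut mice, 4 were called, against 1 in a fit to the 2 groups alone and 1 to 5 when single libraries were left out, with 1 call without p53mut mouse 3. For the interaction, 5 to 7 members were called when single libraries were left out. The interaction of Gbp9 changed sign to 0.0057 without a filter and to 0.20 with the replicate block, and ran from −0.42 to 0.56 when single libraries were left out. That of Gbp3 ran from −0.036 to 0.43, and Gbp9 in NPmut against NrasG12D mice from −0.89 to 0.072. The cause was not tested. With copies summed, Tgtp1 became called in NPmut against control mice (−1.35) and Gbp6 lost its call (−2.82). Over all genes, NPmut against control mice gave 413 higher and 656 lower calls, against 310 and 788 with library totals, which moved the median of all genes to −0.11, 542 and 1026 without a filter, 305 and 346 in a fit to the 2 groups alone, and 217 and 369 without control mouse 3. Low counts limit Gbp6, Gbp9, and Tgtp1, and in NPmut mice also Gm4951 and F830016B08Rik of the other family genes.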
